A study of Mus musculus with 12 samples.

Results

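Mouse cortical neurons that made exon 1 of huntingtin with 72 glutamines (Htt-72Q) were compared with neurons that made the same exon with 25 glutamines (Htt-25Q). The comparison used the 8 libraries whose titles name these proteins, 4 per group, out of 12 in the series, and ran across all 41388 annotated genes. The neurons were primary cultures from the cortex of Swiss Webster embryos at embryonic day 16. They were infected with lentivirus after 5 days in vitro, and total RNA, depleted of ribosomal RNA with Ribo-Zero, was taken after 10 days in vitro. The other 4 libraries came from cultures given a vector without huntingtin (control vector) and are used here only as a reference level. Neither the promoter of the vector nor the species of the huntingtin sequence is given in the sources used here, and every group carries the cells' own mouse Htt gene. Numbers in the labels, which do not say what they stand for, are used here as preparations. Htt-72Q 1, 2, 3 and 4 carry 22, 24, 26 and 27_1, and Htt-25Q 1, 2, 3 and 4 carry 22, 24, 27_1 and 27. Preparations 22, 24 and 27_1 therefore give 3 pairs, while Htt-72Q 3 and Htt-25Q 4 have no partner. What a preparation is, and whether libraries came from separate cultures or animals, is not given in the sources used here, so p-values measure only the spread between these libraries.

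Huntingtin is a large scaffold protein whose first exon encodes a run of glutamines, and an expansion of that run causes Huntington's disease, in which striatal and cortical neurons are lost. Exon 1 fragments with long runs form aggregates and enter the nucleus, where they are known to bind transcription factors and coactivators. Lower expression of neuronal genes for receptors, channels and signalling proteins is a widely described feature of Huntington's disease models.

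Counts per library ranged from 12439335 to 20040985 in Htt-72Q and from 18097932 to 27471442 in Htt-25Q (exact permutation test, two-sided, p = 0.0571, where 4 against 4 cannot go below 0.0286). Reads of mouse Htt (chr5:34761740-34912534, plus strand) stood at 213, 178, 128 and 155 CPM (counts per 1000000, after scaling of the library size) in Htt-72Q 1 to 4 and at 124, 129, 182 and 157 CPM in Htt-25Q 1 to 4. The ranges overlapped and the gene was not called (log2 fold change 0.19 ± 0.25, adjusted p = 0.643). Whether reads from the transgene count toward the mouse gene is not known, so these values do not check the labels. Htt-72Q 3, the shallowest library, stood farthest from the others on the first principal component, which held 42.4% of the variance. Across all 12 libraries the level of Ctnnd1 divided the libraries into a low class (Htt-72Q 1, 2 and 4, Htt-25Q 3 and 2 control vector libraries) and a high class (Htt-72Q 3, Htt-25Q 1, 2 and 4 and the other 2). Because 3 Htt-72Q libraries fall in the low class and 3 Htt-25Q libraries in the high class, each count that opens a result was also computed with the class as a covariate and within preparations.

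Of 14707 genes with enough reads to test, 3308 were called at an adjusted p under 0.05 (22.5%). The genes called lower in Htt-72Q numbered 1974 (13.4%) and those called higher 1334 (9.07%). At least 2-fold changes were found in 905 of the genes called lower (6.15% of those tested) and in 380 of those called higher (2.58%). The median log2 fold change of all tested genes was 0.03. Between Htt-25Q and control vector 0 genes were called, with 129 at an unadjusted p under 0.05 (DESeq2 called 0 with 154 such genes, and limma voom 0 with 133). With a block by title number 306 genes, and with one by preparation 603, were at an unadjusted p under 0.05, again with 0 called. The 0 calls do not show that Htt-25Q and control vector were alike. In the main fit the 25-glutamine fragment gave 0 calls against the vector and the 72-glutamine fragment gave 3308 against the 25-glutamine fragment. The plot of fold change against abundance shows both sets of calls.

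**Figure D1:**
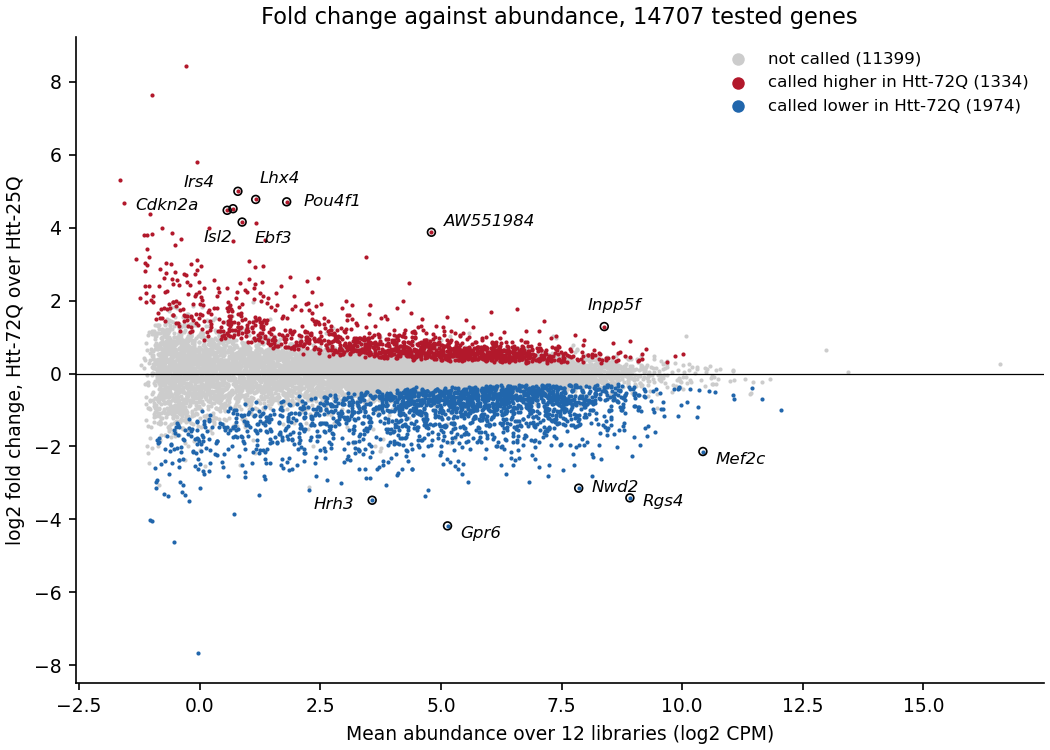
Each point is 1 of 14707 tested genes, by its mean abundance over all 12 libraries (x axis, log2 CPM) and its log2 fold change in Htt-72Q over Htt-25Q (y axis). Genes called at an adjusted p under 0.05 are coloured, 1334 higher and 1974 lower, and the labelled genes are described in the text. The largest rises lie at low abundance, and falls extend to abundant genes such as Mef2c.

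Most calls remained within preparations and with the library class in the model. All 3 within-preparation pairs went the same way for 1952 of the 1974 genes called lower (98.9%) and for 1275 of the 1334 called higher (95.6%), where 26.8% and 25.7% of all tested genes were lower or higher in all 3 pairs. The pairs are made of libraries that gave the calls, so called genes were bound to agree more often than all genes. This agreement is therefore a description and not a separate check. With the class in the model 2794 of the 3308 calls remained, and 3299 of the 3308 had the same sign in both classes. These signs come from the same libraries as the calls and are no separate check either. With preparation as a block 2722 remained. When 1 of the 8 libraries at a time was left out, 1994 genes were called in every one of the 8 fits. The groups did not overlap for 1703 genes higher in Htt-72Q (11.6%) and 2222 lower (15.1%). Of 284 long intergenic noncoding RNAs tested, 17 were higher (5.99%) and 43 lower (15.1%), shares near those of all tested genes (9.07% and 13.4%).

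Most of the largest rises were in genes for transcription factors of other parts of the nervous system and body, all under 1 CPM in each Htt-25Q library. A gene near 0 in Htt-25Q and control vector passed the filter only if it was high in Htt-72Q. For such genes a lack of overlap is partly a result of that selection. Of 96 genes called at least 4-fold higher, 82 had a mean under 1 CPM in Htt-25Q, beside 25 of 184 called at least 4-fold lower. Pou4f1 (chr14:104461676-104467999, minus strand), a POU-homeodomain factor of sensory neurons and of the habenula, was at 8.47, 12.4, 5.1 and 13.5 CPM in Htt-72Q 1 to 4 and at 0.606, 0.186, 0.299 and 0.399 CPM in Htt-25Q 1 to 4. Its lowest Htt-72Q library was thus above its highest Htt-25Q library, and the log2 difference was 4.71 ± 0.42 (adjusted p = 3.16e-06). Lhx4 (chr1:155698031-155751710, minus strand), a LIM-homeodomain factor of motor neurons and pituitary, was at 5.71, 5.26, 6.54 and 7.64 CPM against 0.39, 0.0931, 0.225 and 0.171 CPM. Isl2, another LIM-homeodomain factor of motor neurons, was at 4.79, 5.05, 5.58 and 2.23 CPM against 0.173, 0.186, 0.0748 and 0.342 CPM. Neither overlapped between the groups, and within preparations 22, 24 and 27_1 the log2 differences, computed with a prior count of 2, were 3.55, 4.74 and 4.55 for Lhx4 and 4.13, 4.14 and 3.68 for Isl2. Ebf3 (chr7:137193673-137314445, minus strand), a helix-loop-helix factor of early neurons, was at 5.58, 6.35, 3.35 and 4.4 CPM against 0.347, 0.186, 0.262 and 0.285 CPM (log2 fold change 4.16 ± 0.38, adjusted p = 3.67e-06). Control vector resembled Htt-25Q, with Pou4f1 at 0.044, 0.0598, 0.151 and 0.241 CPM and Lhx4 at 0.0881, 0.299, 0.202 and 0 CPM in control vector 1 to 4.

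The promoters of 3 of these genes are shown because the letters show how far they differ in CpG pairs. Each line is the 250 bases before the RefSeq start on the gene's own strand (GRCm38.p6), 5′ to 3′, and capitals mark CpG pairs. They lie at chr14:104468000-104468249 for Pou4f1, chr1:155742028-155742277 for Lhx4 and chr7:137314446-137314695 for Ebf3, all on the minus strand, and none overlaps an annotated exon, while that of Lhx4 lies inside a longer annotated model of the gene.
Pou4f1: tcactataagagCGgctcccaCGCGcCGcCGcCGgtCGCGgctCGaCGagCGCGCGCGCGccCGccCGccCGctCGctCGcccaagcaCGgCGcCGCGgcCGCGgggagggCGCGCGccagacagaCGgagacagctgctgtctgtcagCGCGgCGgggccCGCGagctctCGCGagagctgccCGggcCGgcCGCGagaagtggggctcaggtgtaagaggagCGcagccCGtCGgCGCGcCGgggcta
Lhx4: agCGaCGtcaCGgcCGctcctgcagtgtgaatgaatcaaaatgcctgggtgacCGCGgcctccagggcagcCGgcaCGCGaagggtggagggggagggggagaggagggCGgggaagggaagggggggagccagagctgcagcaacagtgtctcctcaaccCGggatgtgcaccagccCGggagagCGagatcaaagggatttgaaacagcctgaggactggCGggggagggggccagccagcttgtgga
Ebf3: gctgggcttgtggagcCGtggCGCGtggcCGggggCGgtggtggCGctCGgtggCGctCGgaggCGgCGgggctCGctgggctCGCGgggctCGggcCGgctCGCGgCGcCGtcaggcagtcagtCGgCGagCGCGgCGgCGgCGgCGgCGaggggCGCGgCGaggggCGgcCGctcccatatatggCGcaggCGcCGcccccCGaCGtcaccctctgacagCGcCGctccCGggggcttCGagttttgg
Pou4f1 holds 47 CpG pairs, Lhx4 14 and Ebf3 43, where the median over 32851 mouse promoters of this length is 6 and the quartiles are 2 and 16. Of the 12 largest rises 9 have a promoter in the table, with a median of 16 CpG pairs (5 to 47, taking each gene's entry with the most), and of the 12 largest falls 8 have one, with a median of 13.5 (1 to 42). Both sets reach from CpG-poor to CpG-rich promoters. A count over all called genes was not made, since the table covers 78.7% of tested protein-coding genes.

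**Figure D2:**
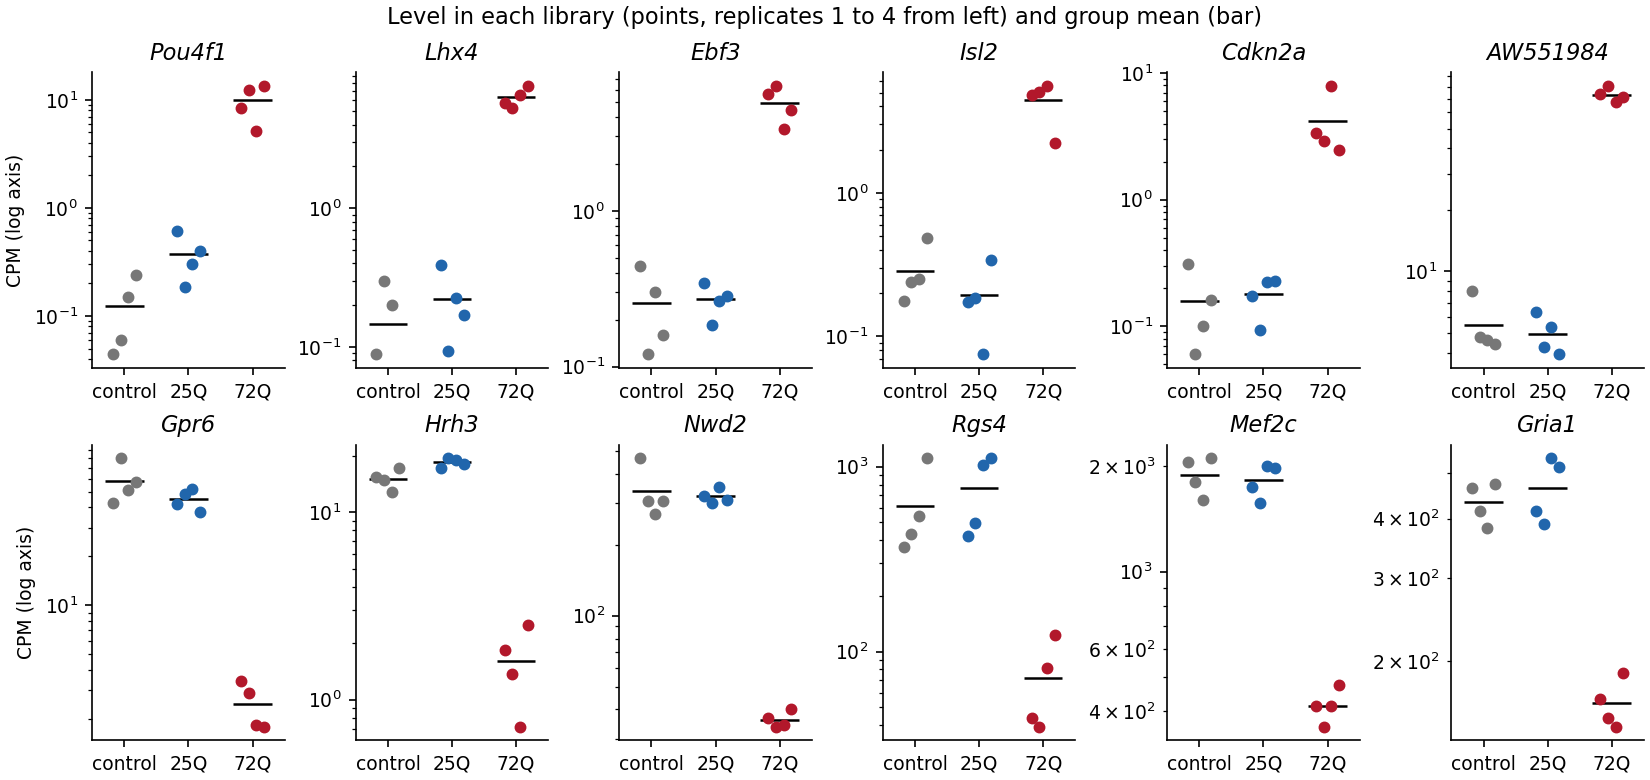
CPM (log axis) in each library of the 3 groups for 6 genes among the largest rises (top) and 6 that fell (bottom); points are libraries, bars are group means, and a control vector library at 0 is not drawn for Lhx4. In every panel the 4 Htt-72Q libraries lie on one side of all Htt-25Q libraries. Control vector lies nearer to Htt-25Q than to Htt-72Q, and for Pou4f1 it reaches below Htt-25Q.

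Genes with other roles were also among the large rises, and the same limit of the filter holds for those near 0 in Htt-25Q and control vector. Cdkn2a, which encodes the cell cycle inhibitors p16 and p19ARF, was at 3.35, 2.94, 7.97 and 2.47 CPM in Htt-72Q 1 to 4 and at 0.173, 0.0931, 0.225 and 0.228 CPM in Htt-25Q 1 to 4, without overlap (log2 fold change 4.48 ± 0.51, adjusted p = 2.77e-05). AW551984 (chr9:39587396-39604403, minus strand) was above 1 CPM in Htt-25Q as well, at 73.7, 80.97, 67.04 and 71.6 CPM against 6.32, 4.28, 5.35 and 3.93 CPM, and it rose 14.7-fold (log2 fold change 3.88 ± 0.22, adjusted p = 9.08e-08). Its libraries lay close together within each group, and the log2 differences within preparations were 3.52, 4.21 and 3.72. Ripk4, a kinase of epithelial differentiation, was at 9.46, 7.3, 5.1 and 2.23 CPM against 0.52, 0.326, 0.262 and 0.228 CPM. Irs4, an insulin receptor substrate, was at 3.87, 4.71, 5.82 and 5.42 CPM against 0.347, 0.0931, 0 and 0.171 CPM, and its log2 fold change of 5.00 became 5.86 without Htt-25Q 1. Rhd, the blood group antigen gene, was at 1.97, 1.98, 6.86 and 0.629 CPM against 0.0433, 0, 0.112 and 0 CPM, a log2 fold change of 5.79 ± 0.90 that became 6.94 without Htt-25Q 3 and 4.89 without Htt-72Q 3. No group of either gene overlapped the other. Twist1, a factor of mesoderm and neural crest, rose by 3.67 ± 0.37 on the log2 scale from 0.518 ± 0.0924 CPM (SD, n = 4).

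Hox genes, the homeobox genes that set position along the trunk and are silent in the forebrain, had more counts in Htt-72Q. The 39 Hox genes in the file had 1016 counts in all over the 4 Htt-72Q libraries and 62 over the 4 Htt-25Q libraries, or 16.7 and 0.688 per 1000000 counts of the library total, with 0.83 in control vector. By library there were 101, 128, 537 and 250 counts in Htt-72Q 1 to 4 and 10, 27, 14 and 11 in Htt-25Q 1 to 4. Each Htt-72Q library was above each Htt-25Q library, and Htt-72Q 3, the shallowest, was the highest. Of its 537 counts, 346 came from Hoxa9, a gene singled out after its values were seen, which had 355 counts over all 4 Htt-72Q libraries and 39 over the Htt-25Q libraries. Without Hoxa9 the libraries held 94, 126, 191 and 250 Hox counts in Htt-72Q 1 to 4 and 2, 5, 10 and 6 in Htt-25Q 1 to 4. Scaled to the library total, 24 Hox genes were higher in Htt-72Q and 1 was higher in Htt-25Q, and 14 had 0 counts in both groups. Only 2 of the 39, Hoxb13 and Hoxd8, had enough reads for the filtered test. Without the filter on low counts 12 were called higher, where 4.1% of 27365 genes were called higher. Of the 39, 8 had a higher CPM in each Htt-72Q library than in any Htt-25Q library, where 11.6% of the tested genes did. Among the 8 is Hoxd9, with 1, 1, 3 and 2 counts in Htt-72Q 1 to 4 against 0. Most Hox genes had too few reads for the test, and no share over genes of such low counts was computed. The 8, and the 24 against 1, therefore have no like reference. Hoxa9, Hoxa10, Hoxc5, Hoxc8 and Hoxc10, which are among the 12, had most of their Htt-72Q counts in Htt-72Q 3. Hoxa10 had 0, 0, 26 and 0 counts and Hoxc5 0, 0, 19 and 1 in Htt-72Q 1 to 4. Hoxc8 and Hoxc10, also among the 8, had 1, 1, 36 and 3 and 3, 2, 16 and 5. Hoxd8 had 23, 30, 42 and 49 counts in Htt-72Q 1 to 4 and 0 in every Htt-25Q library. Against a floor of 3 counts over the Htt-25Q group it was at least 70.9-fold higher. Hoxb9 had 24, 24, 6 and 6 counts against 0, at least 29.6-fold higher. Hoxb13, the most posterior gene of its cluster, was at 1.44, 2.12, 1.51 and 6.05 CPM against 0, 0.186, 0.225 and 0.285 CPM (log2 fold change 4.0 ± 0.73, adjusted p = 0.0012), and at 3.28 without Htt-72Q 4.

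**Figure D3:**
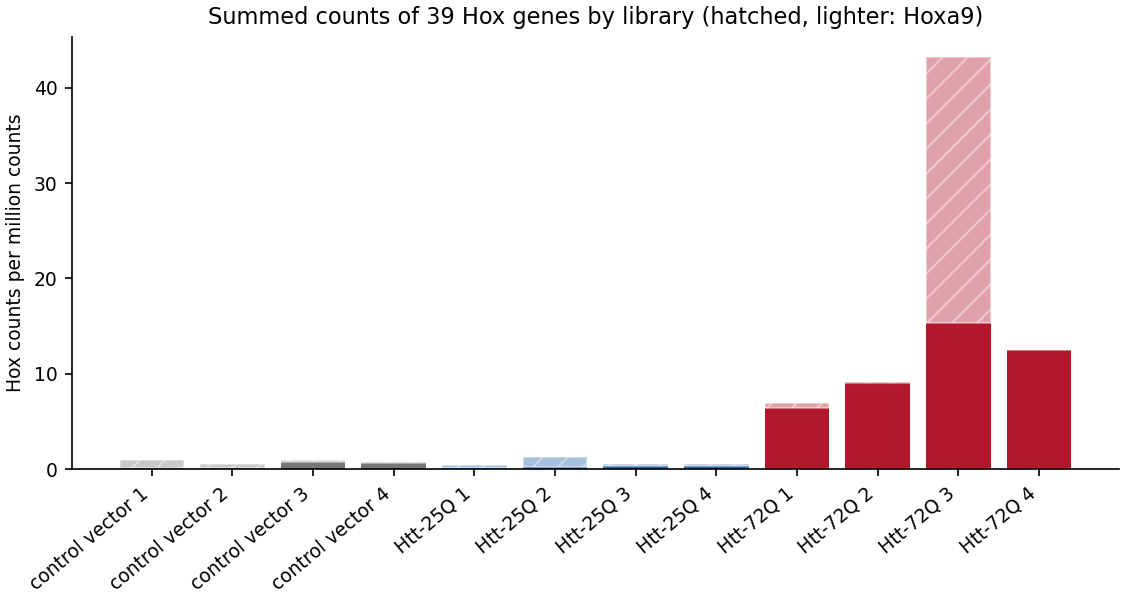
Summed counts of 39 Hox genes per 1000000 counts in each of the 12 libraries (y axis, bars from 0), with the part from Hoxa9 in a lighter shade. The 4 Htt-72Q bars stand above all others, with 101 to 537 counts against 10 to 27 in Htt-25Q, and in Htt-72Q 3 most of the bar is Hoxa9 (346 of 537 counts).

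Some factors outside the Hox clusters had counts in Htt-72Q and 0 in Htt-25Q. Shox2, a homeobox gene of limb, heart and brainstem, had 15, 13, 21 and 36 counts in Htt-72Q 1 to 4 and 0 in Htt-25Q and in control vector, at least 41.9-fold higher in Htt-72Q than in Htt-25Q. Lhx8, a factor of cholinergic neurons, had 15, 20, 2 and 21 counts against 0 (at least 28.6-fold). Isl1, a factor of motor and sensory neurons, had 18, 9, 6 and 17 against 0 (at least 24.6-fold). Every one of these genes had counts in all 4 Htt-72Q libraries. Hand2, a heart and neural crest factor, had 7, 6, 23 and 11 counts against 0 (at least 23.2-fold), and Pou4f2, a retinal ganglion cell factor, 11, 14, 3 and 11 against 0 (at least 19.2-fold). Of 21 LIM, POU and Ebf factors, listed as those of other regions, 9 were tested. Of these 5 were called higher (55.6%, beside 9.07% of all tested genes) and 1 lower (11.1%, beside 13.4%). Of 127 other developmental factors 46 were tested, with 9 higher (19.6%, beside 9.07% of all tested genes), 5 lower (10.9%, beside 13.4%) and 32 not called. The filter keeps a gene with enough reads in 1 group alone, as with Shox2. In both lists a gene near 0 in Htt-25Q and control vector could thus be tested only if it was high in Htt-72Q. Their shares are therefore not comparable with those of all tested genes. Without the filter 26 of the 127 other developmental factors were called higher and 4 lower, where 4.1% and 7.16% of 27365 genes were. When scaled to the library total 98 of the 127 were higher in Htt-72Q and 20 in Htt-25Q. The same tally was not made over all genes of low counts, so it has no reference. The 5 called lower included factors that cortical cells do express. Nr2f1, a nuclear receptor that patterns the cortex, fell from 129 ± 9.24 to 43.6 ± 3.26 CPM (log2 fold change -1.56 ± 0.11, adjusted p = 6.53e-07), and Prdm8, an upper-layer factor, fell (log2 fold change -1.20 ± 0.13).

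Chromatin genes changed little as a list. Of 56 genes for Polycomb proteins and histone or DNA modifying enzymes, 2 were called higher and 6 lower, shares of 3.57% and 10.7% beside 9.07% and 13.4% of all tested genes, and the median was -0.01. The 6 became 3 with upper-quartile scaling, without the filter, and without Htt-72Q 2, Htt-72Q 4, Htt-25Q 3 or Htt-25Q 4. Hdac9, a class IIa deacetylase that binds MEF2 factors, was at 27.8, 34.1, 42.97 and 45.95 CPM in Htt-72Q 1 to 4 and 107, 139.5, 160.0 and 178 CPM in Htt-25Q 1 to 4 (log2 fold change -1.95 ± 0.19, adjusted p = 7.28e-06), without overlap. Kdm5a, a histone H3 lysine 4 demethylase, rose by 0.60 ± 0.12 on the log2 scale.

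Of the 12 largest falls, 3 were in genes that act in G protein signalling. Gpr6 (chr10:41069989-41072285, minus strand), a receptor that activates adenylyl cyclase, was at 3.42, 2.87, 1.83 and 1.79 CPM in Htt-72Q 1 to 4 and 41.9, 48.3, 51.6 and 37.4 CPM in Htt-25Q 1 to 4. It fell 18.1-fold without overlap (log2 fold change -4.18 ± 0.26, adjusted p = 1.52e-07). Hrh3, the inhibitory histamine H3 receptor, was at 1.84, 1.37, 0.717 and 2.52 CPM against 17.3, 19.5, 19.01 and 18.2 CPM. Rgs4, which speeds the shut-off of G proteins, was at 43.5, 39.2, 81.2 and 123 CPM against 421, 495, 1025 and 1116 CPM. All 3 genes were without overlap, and for Rgs4 the libraries from 27_1 and 27 were the highest of each group. Within preparations 22, 24 and 27_1 Rgs4 differed by -3.27, -3.66 and -3.06 on the log2 scale. Nwd2, whose product holds WD repeats, was the most even, at 36.6, 33.8, 34.4 and 40.1 CPM against 323, 301, 351 and 309 CPM, with log2 differences of -3.14, -3.15 and -3.13 within preparations and a log2 fold change of -3.15 ± 0.16 (adjusted p = 7.9e-08).

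The promoters of Gpr6 and Rgs4 are shown because both hold the half-site of the cAMP response element, to which CREB-family factors are known to bind. The 250 bases before the RefSeq start are at chr10:41072291-41072540 and chr1:169747643-169747892 (GRCm38.p6, minus strand), with TGACG on either strand in capitals.
Gpr6: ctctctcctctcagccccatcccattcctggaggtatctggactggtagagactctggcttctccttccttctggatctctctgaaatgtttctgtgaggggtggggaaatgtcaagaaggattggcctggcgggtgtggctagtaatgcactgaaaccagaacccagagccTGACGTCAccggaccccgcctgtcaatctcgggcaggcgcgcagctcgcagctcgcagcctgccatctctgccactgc
Rgs4: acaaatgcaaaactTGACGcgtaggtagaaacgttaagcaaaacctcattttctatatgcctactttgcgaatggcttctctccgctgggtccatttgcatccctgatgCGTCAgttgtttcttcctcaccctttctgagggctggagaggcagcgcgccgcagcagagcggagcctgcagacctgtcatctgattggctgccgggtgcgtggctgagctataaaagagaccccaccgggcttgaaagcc
In Gpr6 half-sites on both strands overlap in 1 full element, TGACGTCA, whose first half-site starts 78 bases before the start site. In Rgs4 the half-sites start 236 and 141 bases before it. Of all 32851 promoters of this length 17.8% hold TGACG on either strand and 1.55% hold TGACGTCA. A match describes these letters and no binding was measured. Lhx4 and Ebf3, which rose, hold 1 and 2 half-sites in the windows printed above.

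The other large falls were in genes of several kinds. St3gal1, a sialyltransferase, was at 4.66, 2.12, 4.07 and 3.1 CPM in Htt-72Q 1 to 4 and at 35.1, 30.7, 35.5 and 40.7 CPM in Htt-25Q 1 to 4. Pdzrn3, a ubiquitin ligase of synapses, was at 24.04, 18.9, 16.7 and 19.3 CPM against 123, 104, 212 and 188 CPM. Syt10, a synaptotagmin of secretory vesicles, was at 2.82, 2.46, 2.07 and 3.53 CPM against 14.99, 17.9, 28.5 and 29.6 CPM. None of these genes overlapped between the groups, and their log2 fold changes were -3.35 ± 0.28, -2.99 ± 0.25 and -3.04 ± 0.26. Lypd1, a modulator of nicotinic receptors, was at 8.47, 8.74, 8.77 and 9.38 CPM against 119, 58.2, 47.6 and 54.2 CPM, with Htt-25Q 1 above the other Htt-25Q libraries (log2 fold change -2.98 ± 0.35, adjusted p = 3.87e-05). Robo3, a receptor of commissural axons, fell from 7.24 ± 1.74 to 0.778 ± 0.346 CPM. Klf5 and Barx2, both transcription factor genes, fell, with log2 fold changes of -2.92 ± 0.29 and -3.01 ± 0.39, and so did Cd93, which marks endothelial cells (log2 fold change -3.32 ± 0.40). The defining endothelial markers were at or near 0 (10 of 12 under 1 CPM and Tie1 at 0), and their sum ranged from 2.12 to 4.78 CPM in Htt-72Q and from 4.93 to 7.06 CPM in Htt-25Q, with Cd93 the member with most counts. At lower abundance than the rule for named genes asks for, 1 tested gene had 0 counts in every Htt-72Q library: Pla2g4d, a phospholipase gene, had 26, 34, 22 and 35 counts in Htt-25Q 1 to 4 and 81 over control vector, and was at least 26.4-fold lower against a floor of 3 counts over the Htt-72Q group (chosen after its values were seen).

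Measured as a difference in CPM, not divided by length, large falls were found in Mef2c, Adcy1, Gpm6a and Tubb5. Mef2c (chr13:83504034-83667079, plus strand), an activity-regulated factor of cortical excitatory neurons, was at 412, 360.2, 412 and 473 CPM in Htt-72Q 1 to 4 and 1742, 1576, 2001 and 1982 CPM in Htt-25Q 1 to 4 (log2 fold change -2.14 ± 0.13, adjusted p = 1.52e-07). Adcy1, a calcium-stimulated adenylyl cyclase, was at 691, 596, 582 and 624 CPM against 1261, 1205, 1779.5 and 1443 CPM. Neither gene overlapped between the groups, and Mef2c differed by -2.08, -2.13 and -2.08 on the log2 scale within preparations. Gpm6a, a neuronal membrane glycoprotein, and Tubb5, a tubulin, fell, with log2 fold changes of -0.71 ± 0.15 and -0.70 ± 0.13. The largest gains in CPM were in Inpp5f, Ctsd, Sqstm1, Zwint and Atp6v1a. Inpp5f, an inositol phosphatase of endosomes, was at 424, 500.1, 698 and 598 CPM against 213, 242, 211 and 244 CPM (log2 fold change 1.29 ± 0.17, adjusted p = 8.67e-05), and Zwint, a kinetochore protein gene also expressed in neurons, was at 1217, 1340.4, 1453 and 1166 CPM against 867, 878, 916 and 903 CPM (log2 fold change 0.54 ± 0.12).

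The glutamate receptor genes that changed fell. Of 21 tested AMPA and NMDA receptor subunits and their auxiliary proteins, 9 were called lower (42.9%, against 13.4% of all tested genes) and 12 were not called, with a median log2 fold change of -0.59. Gria1 (chr11:57011387-57330244, plus strand), an AMPA receptor subunit, was at 166, 151, 145 and 189 CPM in Htt-72Q 1 to 4 and 415, 389.8, 538 and 514 CPM in Htt-25Q 1 to 4 (log2 fold change -1.51 ± 0.14, adjusted p = 3.43e-06). Gria2, the subunit that makes the receptor impermeable to calcium, was at 409, 412, 463 and 494 CPM against 887, 999.5, 1011 and 1060.0 CPM (log2 fold change -1.15 ± 0.11, adjusted p = 5.4e-06). Neither overlapped, and the differences within preparations were -1.32, -1.36 and -1.51 for Gria1 and -1.12, -1.28 and -1.03 for Gria2. Gria3 and Cnih3, an AMPA receptor chaperone, fell with log2 fold changes of -1.74 ± 0.22 and -1.50 ± 0.11. Of 16 kainate, delta and metabotropic receptor genes 8 were lower and 8 not called, with a median of -0.49. Among them were the presynaptic receptors Grm2 (log2 fold change -1.97 ± 0.24) and Grm7 (log2 fold change -1.08 ± 0.12), the postsynaptic receptor Grm5 (log2 fold change -0.84 ± 0.12) and Neto2, an auxiliary subunit of kainate receptors (log2 fold change -1.37 ± 0.12).

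Most tested genes of the postsynaptic density fell. Of 30 scaffold and kinase genes 21 were lower, 2 higher and 7 not called, with a median of -0.83. Camk2b (chr11:5969644-6066362, minus strand), a subunit of the main kinase of the postsynaptic density, was at 214, 221, 268 and 264 CPM in Htt-72Q 1 to 4 and 759, 756, 813 and 869 CPM in Htt-25Q 1 to 4 (log2 fold change -1.72 ± 0.12, adjusted p = 4.03e-07). Dlg2, the scaffold PSD-93, was at 184, 176, 154 and 208 CPM against 454, 464, 608 and 591 CPM, and Camkk2, the kinase upstream of CaM kinases, fell (log2 fold change -1.51 ± 0.16). Against the direction of the list, Homer3 rose by 0.88 ± 0.21 on the log2 scale. Of 24 synaptic adhesion genes 17 were lower (70.8%) and 7 not called (median -0.79). The leucine-rich repeat proteins Lrrtm1 (log2 fold change -1.99 ± 0.21), Flrt2 (log2 fold change -1.77 ± 0.18) and Lrfn5 (log2 fold change -1.39 ± 0.13) and the secreted synapse organiser Cbln1 (log2 fold change -1.50 ± 0.15) had the smallest p-values. On the presynaptic side, of 38 genes of vesicle release 14 were lower (36.8%) and 24 not called, with a median of -0.32. Rph3a, a Rab3 effector, was at 31.00, 37.9, 37.8 and 48.3 CPM against 95.9, 107, 147 and 156 CPM, and Stx1a, a SNARE of the plasma membrane, at 196, 203, 199 and 182 CPM against 330.3, 322, 336 and 335 CPM (log2 fold change -0.76 ± 0.10).

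Of 20 GABA-A and glycine receptor genes, the receptors for inhibitory transmitters, 10 were lower (13.4% over all tested genes), 1 higher and 9 not called (median -0.56). Gabra5, the alpha subunit of extrasynaptic receptors, was at 36.98, 30.1, 26.1 and 34.9 CPM in Htt-72Q 1 to 4 and 107, 98.4, 123 and 140.4 CPM in Htt-25Q 1 to 4 (log2 fold change -1.87 ± 0.14, adjusted p = 9.28e-07). Gabrb2 and Gabra2, subunits of synaptic receptors, fell with log2 fold changes of -0.99 ± 0.12 and -0.90 ± 0.15. All 3 genes were lower in each Htt-72Q library than in any Htt-25Q library.

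Potassium channels were among the lists with the highest share of falls. Of 44 genes 29 were lower (65.9%, beside 13.4% of all tested genes), 2 higher (4.55%, beside 9.07%) and 13 not called. The median was -0.88. Kcnq5, an M-current channel, was at 47.8, 41.8, 45.04 and 53.2 CPM in Htt-72Q 1 to 4 and 159.7, 166, 167 and 198 CPM in Htt-25Q 1 to 4 (log2 fold change -1.88 ± 0.13, adjusted p = 4.03e-07). Kcnh1, an ether-a-go-go channel, was at 7.36, 9.97, 7.57 and 8.61 CPM against 45.3, 40.3, 44.00 and 41.2 CPM (log2 fold change -2.35 ± 0.19, adjusted p = 1.66e-06), and its relative Kcnh3 fell (log2 fold change -1.85 ± 0.19). Kcnip4, an auxiliary protein of A-type channels, was at 9.33, 8.4, 7.65 and 11.4 CPM against 27.3, 30.4, 32.7 and 40.2 CPM. The 2 that rose were low in Htt-25Q: Kcna5, a delayed rectifier of heart muscle and microglia, was at 3.28, 4.57, 5.9 and 6.19 CPM against 0.563, 0.559, 0.935 and 0.513 CPM (log2 fold change 2.93 ± 0.31, adjusted p = 1.43e-05), and Kcnh2, the HERG channel, at 11.7, 12.8, 12.99 and 11.4 CPM against 6.71, 7.08, 7.3 and 7.35 CPM. Of 27 sodium, calcium and HCN channel genes 14 were lower and 13 not called (median -0.55). The T-type calcium channel genes Cacna1i (log2 fold change -2.03 ± 0.27) and Cacna1g (log2 fold change -1.44 ± 0.21) fell, as did the auxiliary subunits Cacnb3 (log2 fold change -1.01 ± 0.12) and Cacna2d1 (log2 fold change -1.03 ± 0.15).

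Genes of G protein and cAMP signalling, the longest list tested, had the largest number of falls of any list. Of 74 genes 48 were lower (64.9%, beside 13.4% of all tested genes), 3 higher (4.05%, beside 9.07%) and 23 not called. The median was -1.0. Besides Gpr6 and Hrh3, Rgs6, a regulator of G protein signalling, was at 14.4, 12.8, 15.5 and 22.3 CPM in Htt-72Q 1 to 4 and 59.1, 67.6, 71.5 and 75.2 CPM in Htt-25Q 1 to 4 (log2 fold change -2.07 ± 0.16, adjusted p = 1.1e-06). Each of its Htt-72Q libraries was below each Htt-25Q library. Against the list, Dgkb, a diacylglycerol kinase, was at 34.2, 32.97, 28.9 and 42.7 CPM against 13.9, 13.6, 17.8 and 16.2 CPM (log2 fold change 1.17 ± 0.15, adjusted p = 8.01e-05), higher in every Htt-72Q library.

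Genes that neurons switch on with activity differed between preparations as well as between groups. Of 37 immediate early genes 9 were lower (24.3%, beside 13.4% of all tested genes), 2 higher (5.41%, beside 9.07%) and 26 not called. The median was -0.98, and 20 were lower in all 3 pairs. The 9 became 4 without Htt-72Q 1, 3 without Htt-72Q 2, 4 without Htt-25Q 3 and 3 without Htt-25Q 4, and 12 with preparation as a block. Npas4 (chr19:4984355-4989971, minus strand), a factor induced by calcium entry, was at 1.44, 1.09, 2.31 and 4.5 CPM in Htt-72Q 1 to 4 and 6.89, 5.31, 17.8 and 21.8 CPM in Htt-25Q 1 to 4. The Htt-25Q libraries from 27_1 and 27 were highest, and Htt-72Q 4, from 27_1, was highest within Htt-72Q. Within preparations the log2 level of Npas4 differed by -2.17, -2.17 and -1.96, and over the groups by -2.44 ± 0.57 (adjusted p = 0.00654). Egr3, a zinc finger factor, was at 1.9, 1.64, 1.99 and 10.1 CPM against 9.66, 11.9, 33.7 and 37.2 CPM. Its Htt-72Q 4 library lay above Htt-25Q 1, so the groups overlapped, while each pair was lower in Htt-72Q (log2 differences of -2.28, -2.78 and -1.73). The log2 fold change of Egr3 was -2.51 ± 0.61, and -3.62 without Htt-72Q 4. Trib1, a pseudokinase, fell (log2 fold change -1.06 ± 0.22). Ier3, an early response gene of stress, was 1 of the 2 that rose, at 2.56, 3.21, 5.1 and 7.06 CPM against 0.866, 0.978, 0.524 and 0.911 CPM (log2 fold change 2.46 ± 0.55, adjusted p = 0.00505).

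Of 19 feedback genes of the ERK pathway 5 were lower (26.3%, beside 13.4% of all tested genes), 1 higher (5.26%, beside 9.07%) and 13 not called. The median was -0.18. Dusp6, the phosphatase that switches off ERK, was at 14.1, 13.99, 18.02 and 25.6 CPM in Htt-72Q 1 to 4 and 46.04, 47.95, 133 and 133 CPM in Htt-25Q 1 to 4 (log2 fold change -2.32 ± 0.46, adjusted p = 0.00219). Each Htt-72Q library was below each Htt-25Q library, and the libraries from 27_1 and 27 were the highest of each group. Its relative Dusp7 differed by -0.84, -1.01 and -1.34 on the log2 scale within preparations, and Spry1, a receptor kinase inhibitor, by -1.51, -1.07 and -0.78. The matrix gene Tnc (tenascin C) was at 36.1, 29.6, 37.9 and 32.6 CPM in Htt-72Q 1 to 4 and at 94.6, 98.3, 428 and 327 CPM in Htt-25Q 1 to 4, so that its Htt-25Q libraries differed between preparations while its Htt-72Q libraries lay close together. Its log2 differences within preparations were -1.39, -1.73 and -3.71. The plot by preparation sets these genes side by side.

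**Figure D4:**
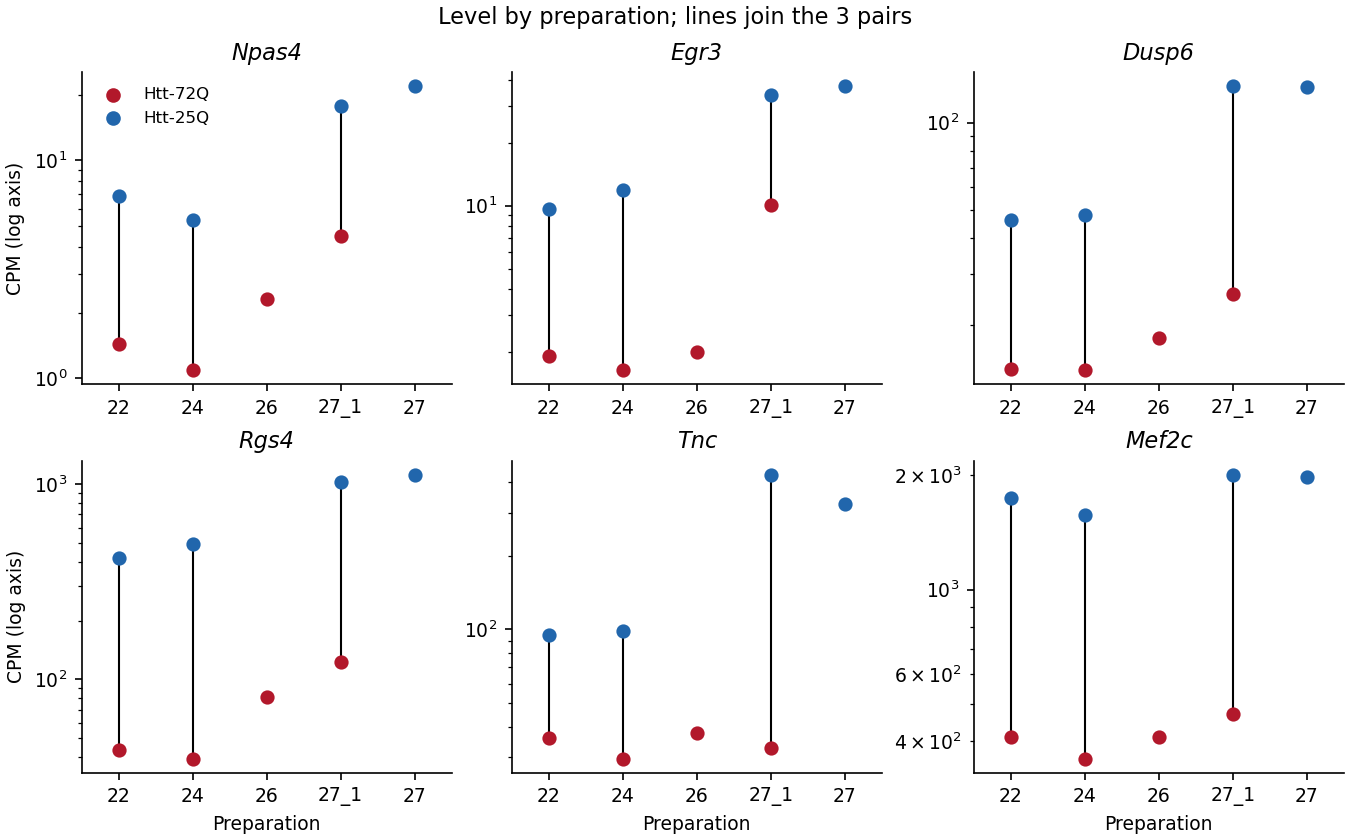
CPM (log axis) of Npas4, Egr3, Dusp6, Rgs4, Tnc and Mef2c by preparation (x axis), with points for Htt-72Q and Htt-25Q libraries and lines joining the 3 pairs. In each pair Htt-72Q is lower, and for all but Mef2c the Htt-25Q libraries of 27_1 and 27 lie well above those of 22 and 24.

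Growth factors and neuropeptides fell in part. Of 49 genes for neurotrophins, activins and other growth factors and their receptors 20 were lower (40.8%), 2 higher (4.08%) and 27 not called. Over all tested genes the shares were 13.4% and 9.07%, and the median of the list was -0.53. Inhba, an activin subunit, was at 0.591, 0.546, 0.877 and 0.871 CPM in Htt-72Q 1 to 4 and 3.16, 4.1, 6.4 and 4.04 CPM in Htt-25Q 1 to 4 (log2 fold change -2.60 ± 0.30, adjusted p = 3.23e-05). Fst, which encodes the activin antagonist follistatin, was at 1.25, 0.887, 0.319 and 2.03 CPM against 8.62, 7.68, 7.45 and 9.05 CPM (log2 fold change -2.80 ± 0.34, adjusted p = 3.97e-05). A ligand and its antagonist were thus both lower in every Htt-72Q library. Besides Irs4, the member that rose was Igf2, at 1.77, 2.39, 1.2 and 1.93 CPM against 0.0866, 0.0931, 0.561 and 0.342 CPM, with a log2 fold change of 2.70 ± 0.50, or 3.41 without Htt-25Q 3. Of 29 neuropeptide, granin and processing genes 11 were lower and 1 higher (median -0.90), and the 11 became 6 without Htt-72Q 1, Htt-72Q 2 or Htt-25Q 3 and 5 without Htt-25Q 4. Cck was at 34.9, 33.5, 28.3 and 49.00 CPM against 103, 80.5, 143 and 151 CPM (log2 fold change -1.71 ± 0.25, adjusted p = 0.000197). Sst, the peptide of a class of interneurons, and the convertase Pcsk2 fell with log2 fold changes of -1.23 ± 0.19 and -1.13 ± 0.14. Gal (galanin) rose by 2.43 ± 0.52 on the log2 scale from 0.245 ± 0.156 CPM (SD, n = 4).

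Most identity genes of cortical excitatory neurons fell. Of 43 factors of cortical projection neurons 29 were lower (67.4%), 1 higher (2.33%) and 13 not called. Over all tested genes the shares were 13.4% and 9.07%, and the median of the list was -0.92. Lmo4 (chr3:144188530-144205220, minus strand), a LIM-only factor, was at 68.04, 66.4, 57.00 and 69.1 CPM in Htt-72Q 1 to 4 and 264, 231, 248 and 261 CPM in Htt-25Q 1 to 4. Foxp1, a forkhead factor of cortical and striatal neurons, was at 32.7, 27.99, 32.8 and 24.5 CPM against 121, 98.4, 98.1 and 102 CPM (log2 fold change -1.83 ± 0.21, adjusted p = 2.42e-05), and Tshz3 at 15.6, 13.9, 13.9 and 16.5 CPM against 43.1, 39.7, 37.5 and 41.97 CPM (log2 fold change -1.44 ± 0.15). No group overlapped the other in these genes. Of 12 excitatory neuron markers 11 were lower and 1 was not called (median -1.21), among them Neurod6 (log2 fold change -1.81 ± 0.22), Rorb (log2 fold change -1.43 ± 0.17) and Nrgn (log2 fold change -1.31 ± 0.18). Within preparations the log2 differences were -2.35, -2.17 and -1.37 for Neurod6. Of 24 interneuron markers 11 were lower and 13 not called (median -0.52), with Calb1 at 17.1, 18.5, 31.01 and 36.8 CPM against 87.2, 123, 143 and 167 CPM, and with Gad1 (log2 fold change -1.42 ± 0.25) and Dlx6os1 (log2 fold change -1.43 ± 0.24) also lower. Of 12 pan-neuronal markers 4 were lower (median -0.23), among them Rbfox3 (log2 fold change -1.61 ± 0.23) and Dcx (log2 fold change -1.0 ± 0.19).

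Summed over its members, the excitatory list ranged from 582 to 822 CPM in Htt-72Q and from 1321 to 1848 CPM in Htt-25Q, the interneuron list from 498 to 690.3 against 823 to 1198 CPM, and the pan-neuronal list from 6190.4 to 6887 against 7781 to 8691 CPM (exact permutation tests, p = 0.0286 each, 0.0929 adjusted over 13 values). In RNA from whole cultures, fewer neurons of a type and less RNA per neuron cannot be told apart. For the glial lists the groups overlapped. Astrocyte markers summed to 3551 ± 233 CPM in Htt-72Q and 3527 ± 390.0 CPM in Htt-25Q (SD, n = 4 each, exact permutation p = 0.943), with 0 of 16 called by edgeR and by DESeq2 and limma voom (1 at an unadjusted p under 0.05 in edgeR), and oligodendrocyte lineage markers to 737 ± 38.2 against 720.2 ± 71.6 CPM (exact permutation p = 0.714). Neural progenitor markers summed to 973 ± 131 against 836 ± 61.3 CPM (exact permutation p = 0.0571). Microglia markers were near absent, with 12 of 14 under 1 CPM. The part of cell composition in the falls was not tested.

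**Figure D5:**
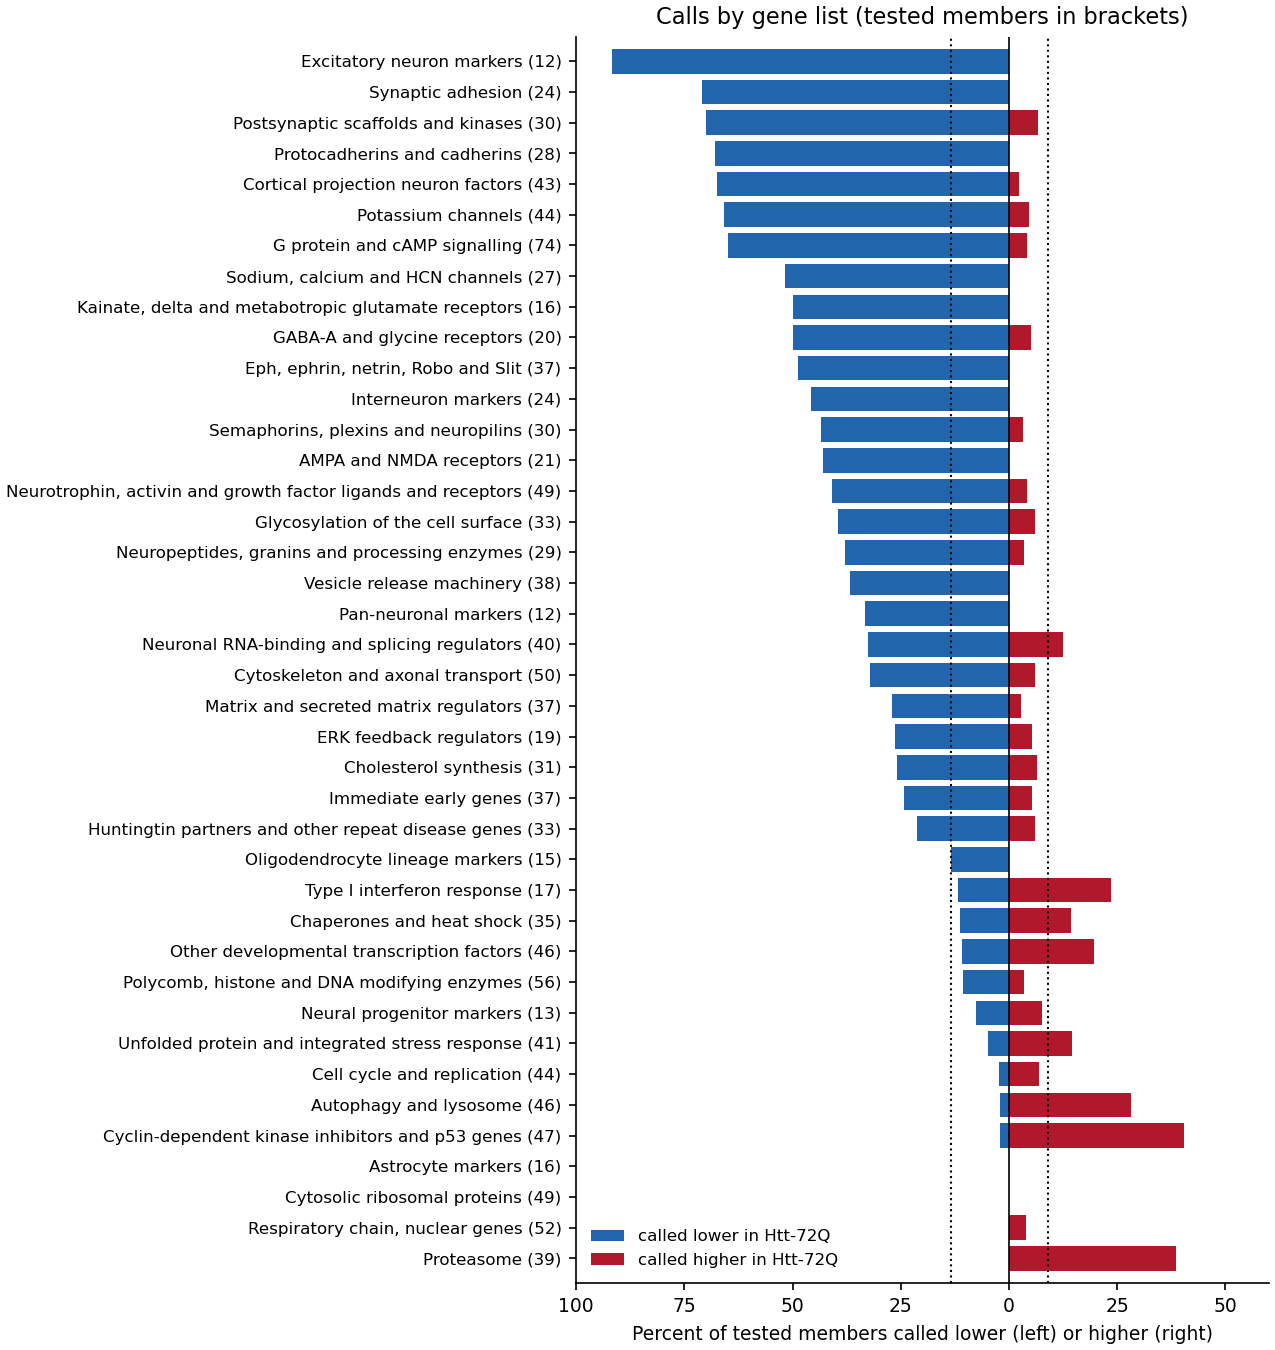
Share of tested members called lower (left of 0) and higher (right of 0) in Htt-72Q (x axis, percent). Each gene list with at least 12 tested members is drawn (y axis, number tested in brackets). For other developmental factors and interferon genes the filter makes the shares not comparable with those of all tested genes. Dotted lines mark the shares over all tested genes, 13.4% lower and 9.07% higher; the synaptic, channel and cortical lists extend far to the left and the p53 and proteasome lists to the right.

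Among genes that guide axons and hold cells together, shares above the 13.4% of all tested genes were lower, and most of the guidance genes were not called. Of 30 semaphorin, plexin and neuropilin genes 13 were lower (43.3%), 1 higher and 16 not called (median -0.43). Plxnd1, a semaphorin receptor, was at 24.6, 25.6, 17.3 and 22.6 CPM in Htt-72Q 1 to 4 and 79.9, 89.3, 166 and 119 CPM in Htt-25Q 1 to 4 (log2 fold change -2.33 ± 0.24, adjusted p = 1.04e-05), and Sema7a, a membrane-anchored semaphorin, at 14.9, 19.3, 30.9 and 26.3 CPM against 74.5, 85.8, 95.9 and 106 CPM (log2 fold change -1.99 ± 0.21). Of 37 Eph, ephrin, netrin, Robo and Slit genes 18 were lower and 19 not called (median -0.61), among them Ephb6 (log2 fold change -1.47 ± 0.16) and the netrin receptors Unc5d (log2 fold change -1.37 ± 0.18) and Unc5a (log2 fold change -1.08 ± 0.15). Of 28 protocadherin and cadherin genes 19 were lower and 9 not called (median -0.72). Cdh8 was at 44.1, 38.2, 35.8 and 57.5 CPM against 152, 119, 147 and 149 CPM, and Cdh13, a lipid-anchored cadherin, at 188, 158, 104 and 149 CPM against 403, 349, 541 and 473 CPM. Of 33 genes of cell surface glycosylation 13 were lower and 2 higher (median -0.32), among the lower the sulfotransferase Chst1 (log2 fold change -1.34 ± 0.10) and B3gat1, a glucuronyltransferase of neural cell surfaces (log2 fold change -1.20 ± 0.14). Matrix genes gave 10 lower and 1 higher of 37 (median -0.16), among them Postn (log2 fold change -2.63 ± 0.38), Adamts3 (log2 fold change -1.46 ± 0.26) and Col4a1 (log2 fold change -1.04 ± 0.14). Cytoskeletal and transport genes gave 16 lower and 3 higher of 50 (median -0.23). Stmn1, a tubulin-binding protein of growing axons, and Kif21b, a kinesin, fell with log2 fold changes of -1.08 ± 0.16 and -0.90 ± 0.17, while Kif21a, its relative, rose by 0.53 ± 0.13 on the log2 scale.

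Among p53 target and cyclin-dependent kinase inhibitor genes 19 of 47 were higher (9.07% over all tested genes), 1 was lower and 27 were not called, with a median of 0.42 and with 27 higher in all 3 pairs. Gtse1, a p53-binding protein of the cell cycle, was at 10.4, 9.56, 8.05 and 8.95 CPM in Htt-72Q 1 to 4 and 2.69, 2.7, 2.36 and 1.94 CPM in Htt-25Q 1 to 4 (log2 fold change 1.93 ± 0.20, adjusted p = 1.12e-05). Pidd1, which senses damage upstream of caspase-2, was at 8.54, 10.04, 6.7 and 5.95 CPM against 1.6, 1.91, 2.02 and 1.59 CPM (log2 fold change 2.12 ± 0.22, adjusted p = 1.11e-05). Perp, a p53 target of cell adhesion and death, was at 16.4, 15.97, 16.02 and 14.03 CPM against 6.8, 5.63, 4.94 and 6.32 CPM. In none of these did the groups overlap, and with Cdkn2a they were the members with the smallest p-values. The member that fell was Plk2, a polo-like kinase that p53 induces and that also acts at synapses (log2 fold change -1.19 ± 0.16, adjusted p = 0.000133).

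Of 39 tested proteasome genes 15 were higher (38.5%, beside 9.07% of all tested genes) and 24 not called, with a median of 0.46 and with 26 higher in all 3 pairs. The 15 became 9 without Htt-72Q 3, 7 without Htt-25Q 1, 5 without Htt-25Q 2, 8 without Htt-25Q 4 and 6 with the 3 pairs alone, while the median stayed between 0.35 and 0.46. Psmd2, a base subunit, was at 572, 559, 471 and 452 CPM in Htt-72Q 1 to 4 and 329, 311, 397 and 357 CPM in Htt-25Q 1 to 4 (log2 fold change 0.56 ± 0.12, adjusted p = 0.00363), and Psmd12, a lid subunit, at 95.7, 95.1, 142 and 114 CPM against 72.6, 71.4, 72.9 and 79.95 CPM. Psmb9, a catalytic subunit of the immunoproteasome, changed most among those named, from 1.39 ± 0.388 to 6.49 ± 0.308 CPM (log2 fold change 2.21 ± 0.38, adjusted p = 0.000742). Each of the 3 was higher in every Htt-72Q library than in any Htt-25Q library.

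Of 46 tested lysosomal and autophagy genes 13 were higher (28.3%, beside 9.07% of all tested genes), 1 lower (2.17%, beside 13.4%) and 32 not called. The median was 0.25. The 13 became 10 to 14 when 1 library was left out and 8 with the 3 pairs alone. Ctsd (chr7:142371148-142388038, minus strand), the protease cathepsin D, was at 660.4, 768, 654 and 717 CPM in Htt-72Q 1 to 4 and 339.9, 357, 425 and 381 CPM in Htt-25Q 1 to 4 (log2 fold change 0.90 ± 0.13, adjusted p = 0.000218). Sqstm1, the autophagy receptor p62, was at 759.5, 854, 797 and 823 CPM against 461, 494, 531 and 542 CPM (log2 fold change 0.67 ± 0.12, adjusted p = 0.000986), and Atp6v1a, a subunit of the proton pump, at 1065, 1168, 1177 and 1173 CPM against 728, 774, 935 and 829 CPM (log2 fold change 0.49 ± 0.12). The groups did not overlap in any of them. Ctsl, another cathepsin, and Lamp2, a lysosomal membrane protein, rose by 0.53 ± 0.10 and 0.44 ± 0.10 on the log2 scale, while the lysosomal channel gene Mcoln1 fell (log2 fold change -0.50 ± 0.13).

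Of 35 chaperone genes 5 were higher (14.3%, beside 9.07% of all tested genes) and 4 lower (11.4%, beside 13.4%), with a median of 0.15 and with 3 higher without Htt-25Q 3; these shares are near those of all tested genes. The J-domain genes Dnajb1 (log2 fold change 0.66 ± 0.13) and Dnajb2 (log2 fold change 0.84 ± 0.17) and the chaperonin subunit Cct3 (log2 fold change 0.48 ± 0.12) rose, and the small heat shock gene Cryab fell (log2 fold change -1.07 ± 0.23). Of 41 genes of the unfolded protein and integrated stress responses 6 were higher (14.6%) and 2 lower (4.88%). Those shares stand beside 9.07% and 13.4% of all tested genes, and the median was 0.07. The 6 became 3 without Htt-72Q 1, Htt-72Q 2, Htt-25Q 1 or Htt-25Q 4, and the 2 became 5 with preparation as a block and 7 with 27 and 27_1 merged in it. Hspa5, the main chaperone of the endoplasmic reticulum, was at 635, 592, 624 and 527 CPM against 457, 417, 420.5 and 435 CPM (log2 fold change 0.46 ± 0.11, adjusted p = 0.00874), Ppp1r15a, which reverses the translation block, rose by 0.51 ± 0.13 on the log2 scale, and Vldlr, a lipoprotein and reelin receptor on the list, fell (log2 fold change -0.70 ± 0.14). Of 34 interferon response genes 17 had enough reads to test, with 4 higher (23.5%, beside 9.07%) and 2 lower (11.8%, beside 13.4%). The filter keeps a gene with enough reads in 1 group alone, so these shares are not comparable with those of all tested genes. The 4 became as few as 2 when 1 library was left out. They became 2 with the library class as a covariate and with the 3 pairs alone. Among the called genes were Usp18 (log2 fold change 3.02 ± 0.52), Ddx58, which encodes the RNA sensor RIG-I (log2 fold change 1.10 ± 0.27), and B2m (log2 fold change -0.86 ± 0.21).

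Few ribosomal protein, mitochondrial and respiratory chain genes were called. Of 49 cytosolic ribosomal protein genes edgeR called 0, with 2 at an unadjusted p under 0.05, and DESeq2 and limma voom called 0. Their median was 0.17, or 0.0068 with preparation as a block. Of 13 mitochondrial messenger RNAs 7 were tested. EdgeR called 0 of the 7, with 0 at an unadjusted p under 0.05, and DESeq2 and limma voom called 0. Their median was -0.35, and it changed sign to 0.33 with the library class as a covariate. Of 52 nuclear genes of the respiratory chain 2 were higher (3.85%, beside 9.07% of all tested genes) and 50 not called. Their median was 0.28, and 47 of the 52 had a log2 fold change above 0 and 5 below 0. Cell cycle and replication genes gave 3 higher (6.82%) and 1 lower (2.27%) of 44, beside 9.07% and 13.4% of all tested genes. Ccne2, a cyclin of S-phase entry, was higher (log2 fold change 0.87 ± 0.21) and E2f1, a factor of the same step, was lower (log2 fold change -1.07 ± 0.18). Cholesterol synthesis genes were divided: of 31 tested 8 were lower (25.8%, beside 13.4% of all tested genes) and 2 higher (6.45%, beside 9.07%). The median was -0.18. Hmgcs1, which feeds the mevalonate pathway, was at 543, 664, 822 and 870.1 CPM in Htt-72Q 1 to 4 and 1048, 1274, 1338 and 1335 CPM in Htt-25Q 1 to 4 (log2 fold change -0.79 ± 0.15, adjusted p = 0.00147), and Tm7sf2, a sterol reductase, fell (log2 fold change -1.24 ± 0.18). Lss, the enzyme that closes the sterol ring, rose by 0.67 ± 0.11 on the log2 scale, and Insig2, which holds back the pathway, by 0.95 ± 0.15.

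RNA-binding proteins and huntingtin partners gave mixed results. Of 40 neuronal RNA-binding and splicing genes 13 were lower (32.5%) and 5 higher (12.5%), beside 13.4% and 9.07% of all tested genes. The median was -0.21. The 5 became 2 or 3 without any library except Htt-72Q 4 and Htt-25Q 1, without the filter and with the 3 pairs alone. Rbfox1 was at 79.3, 93.05, 78.04 and 97.2 CPM in Htt-72Q 1 to 4 and 158, 189, 230.1 and 242 CPM in Htt-25Q 1 to 4 (log2 fold change -1.24 ± 0.15, adjusted p = 3.6e-05). Khdrbs3 and Khdrbs2, splicing factors of neurexins, fell with log2 fold changes of -1.17 ± 0.12 and -1.47 ± 0.18, while Tardbp, the gene of TDP-43, rose by 0.45 ± 0.12 on the log2 scale. Of 33 genes for huntingtin partners and other repeat disorders 7 were lower (21.2%, beside 13.4%) and 2 higher (6.06%, beside 9.07%). The median was -0.02, and 4 were lower in the 3 pairs alone. Hap1, huntingtin-associated protein 1, was at 157, 252, 244 and 217 CPM against 87.4, 99.5, 98.2 and 99.9 CPM (log2 fold change 1.17 ± 0.15, adjusted p = 5.41e-05), higher in every Htt-72Q library. Hip1r, a relative of huntingtin-interacting protein 1, was at 44.7, 42.7, 52.6 and 42.8 CPM against 106, 113, 98.3 and 104 CPM (log2 fold change -1.20 ± 0.11, adjusted p = 3.67e-06), lower in every Htt-72Q library. Atxn1, the ataxin of spinocerebellar ataxia type 1, fell (log2 fold change -0.95 ± 0.13).

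Other called members of these lists were closer to the threshold. Members that rose while their list had a median at or below 0 were Camk2g, a CaM kinase subunit (log2 fold change 0.43 ± 0.13), Glra2, a glycine receptor (log2 fold change 0.83 ± 0.28), Oprl1, the nociceptin receptor (log2 fold change 0.52 ± 0.17), and Tle4, a corepressor of deep-layer neurons (log2 fold change 0.73 ± 0.22). Others of this kind were Sema3g (log2 fold change 1.60 ± 0.44), St6galnac4 (log2 fold change 0.61 ± 0.17), the Polycomb gene Phc3 (log2 fold change 0.64 ± 0.20), the matrix gene Fbn1 (log2 fold change 0.67 ± 0.20), and the RNA-binding genes Fxr1 (log2 fold change 0.39 ± 0.11), Mbnl1 (log2 fold change 0.40 ± 0.13) and Srrm3 (log2 fold change 0.64 ± 0.18). Members that fell while their list had a median above 0 were the chaperone genes Hsph1 (log2 fold change -0.82 ± 0.26), Dnajb5 (log2 fold change -0.72 ± 0.21) and Chordc1 (log2 fold change -0.56 ± 0.18), and also Edem1 (log2 fold change -0.50 ± 0.17) and Lhx6 (log2 fold change -0.61 ± 0.19). In the interferon list Stat2 fell (log2 fold change -0.84 ± 0.28). Among glial, progenitor and mural genes the myelin genes Mobp (log2 fold change -3.15 ± 0.69) and Mog (log2 fold change -1.23 ± 0.41), the Notch target Hes1 (log2 fold change -0.85 ± 0.27) and the pericyte gene Rgs5 (log2 fold change -1.80 ± 0.56) fell, and Vim (log2 fold change 0.48 ± 0.17) and Tagln (log2 fold change 1.18 ± 0.34) rose. Mcm6 (log2 fold change 0.61 ± 0.17), Tpx2 (log2 fold change 0.67 ± 0.19), Sdha (log2 fold change 0.51 ± 0.17) and Uqcrb (log2 fold change 0.71 ± 0.19) rose and the neuronal tubulin Tubb3 (log2 fold change -0.51 ± 0.14) fell. Each of these 28 genes was no longer called without at least 1 library. For Uqcrb this was Htt-25Q 4, for Tubb3 Htt-72Q 4, and for Mobp Htt-25Q 1, without which it had too few reads to be tested, and for each of the others it was any of 2 to 7 libraries. Calls that held without each library in turn included Vax2, a homeobox gene of the ventral eye (log2 fold change 4.36 ± 0.64), and the heparan sulfate enzyme Ndst4 (log2 fold change 1.62 ± 0.40), which rose, and Dlx1 (log2 fold change -0.88 ± 0.19), Fn1 (log2 fold change -2.79 ± 0.49), Scg2 (log2 fold change -1.42 ± 0.28), Sema3a (log2 fold change -1.61 ± 0.24) and Syt1 (log2 fold change -0.98 ± 0.25), which fell.

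Among tested protein-coding genes, those called lower spanned a median of 50.1 kb from first to last annotated base, those called higher 23.3 kb, those not called 24.5 kb and all of them 26.3 kb. When the 13388 genes were divided by span into 5 groups of equal size, 9.37%, 9.08%, 10.6%, 14.1% and 26.3% were called lower from the shortest to the longest, and 8.92%, 11.02%, 10.98%, 9.49% and 6.50% were called higher. The share called lower thus rose in the longer groups, and that called higher was lowest in the longest. Long genes also had more reads, with a median of 35.6 CPM in Htt-25Q in the longest group and 15.4 CPM in the shortest. Among genes with a mean of at least 10 CPM the shares lower were 10.8% in the shortest group and 31.8% in the longest. Many synaptic, channel and adhesion genes are long, and which property goes with the falls was not tested.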

How the data were processed

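Gene counts of 12 libraries were used as deposited. The submitters' processing notes list STAR 2.0.4b, Subread, featureCounts 1.45 and GRCm38 without their settings; whether strand was used is not given in the sources used here, so overlapping and antisense genes cannot be told apart. The deposited CPM and RPKM were made by the authors from these counts (scaled to the library total, and per kilobase of gene length) and were not used; CPM here are rescaled with TMM, except where the library total is named. Library totals were 12439335 to 27471442, and no 2 libraries agreed within sampling noise. Per the labels, each library was sequenced in 2 lanes that were merged.

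The deposited counts were tested with edgeR 4.0.16 (R 4.3.3): TMM scaling, filterByExpr (14707 genes kept) and the quasi-likelihood test over 12 libraries in 3 groups, with Benjamini-Hochberg adjustment; called means an adjusted p under 0.05, and SE is the log2 fold change divided by the square root of F. The procedure was tested on simulated data. Libraries with the same preparation number were treated as pairs, and a block by preparation was run. Their deviations from the group means correlated at 0.186 (22), 0.113 (24) and 0.155 (27_1). Those of Htt-72Q 4 (27_1) and Htt-25Q 4 (27), not treated as a pair, correlated at 0.414. DESeq2 1.42.0 and limma 3.58.1 were alternatives.

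Named genes were Htt; the 12 largest called rises and falls (protein coding, mean of at least 1 CPM); the 5 largest CPM changes each way; in each list up to 4 called members of smallest p and called members against the list's median; and developmental factors with 0 counts in 1 group. The comparison, the 46 lists and the alternatives were chosen with earlier results of these data known. Of 204 called genes the rule picks, 179 are described; the counts of each list include all. List symbols were matched for 1520 of 1533.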

Additional observations from a re-analysis of the deposited data

Results flagged for a closer look

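In groups of 4 libraries, a value was picked out where its gap to the nearest other library was a larger share of the group's range than Dixon's 95% critical value. Of 388 groups looked at, 20 were picked out, and chance picks out about 1 in 20. Htt-72Q 4 gave 5 of them: Cct3 at 271 CPM, Egr3 at 10.1 CPM, Grm5 at 221 CPM, Hoxb13 at 6.05 CPM and Perp at 14.03 CPM. Htt-72Q 3 gave Cdkn2a at 7.97 CPM, the highest of its group, Mbnl1 at 70.9 CPM, Srrm3 at 53.4 CPM and Ctnnd1 at 25.001 CPM scaled to the library total only. Atp6v1a at 1065 CPM was picked out in Htt-72Q 1. Among Htt-25Q libraries, replicate 1 gave Foxp1 at 120.5 CPM, Hap1 at 87.4 CPM, Lypd1 at 119 CPM and Sst at 16.2 CPM. Replicate 2 gave Cdh8 at 119 CPM and Khdrbs3 at 149 CPM. Replicate 3 gave Insig2 at 25.9 CPM, Kcna5 at 0.935 CPM and Gapdh at 41.6 CPM on the same scale, and replicate 4 gave Rbfox3 at 125 CPM. Ctnnd1 and Gapdh divide the libraries into the classes described in the report.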

How the results depend on the processing

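The number of called genes was 2293 to 3211 when 1 of the 8 libraries was left out and 2556 to 4205 under the other alternatives run, beside 3308. Genes called higher ranged from 771 (without Htt-25Q 4) to 1434 without 1 library, beside 1334, and those called lower from 1514 to 1868, beside 1974. Of 134 recomputed counts over all genes, 133 stayed within 1.5 times. Upper-quartile scaling moved the median log2 fold change of all genes by 0.04, and 46.8% of calls were then higher, beside 40.3%. The block by preparation gave 3120 calls, and with 27 and 27_1 merged 4205. By title number the deviations of replicates 3 and 4 correlated at -0.21 and 0.41, the latter between a 27_1 and a 27 library, and the block gave 3739, and with the 3 pairs alone 2556 were called. Of 179 described genes that the naming rule picks and Shox2, 148 were called under each alternative planned and tested, and 0 reversed. The block by preparation ended the calls of Fxr1, Glra2, Hes1, Hsph1, Oprl1 and Vim, and that by title number those of Edem1 and Sdha. With the 3 pairs alone 21 lost their call, among them Ccne2 (adjusted p = 0.0542), Cct3 (0.0562), Lamp2 (0.0598), Mcoln1 (0.0768) and Tardbp (0.0653). With the library class as a covariate 12 did, all of them among the genes described as close to the threshold. Of 1934 recomputed list counts 1715 were within 1.5 times and most of the others that reach 5 genes are given with their list. Besides those, immediate early genes called lower numbered 17 with the block by title number and 16 with 27 and 27_1 merged, beside 9, proteasome genes called higher 23 in a fit of only the 8 libraries, beside 15, and other developmental factors called higher 5 with a filter of at least 1 CPM in 4 libraries, beside 9. The prior count of 0.5 left the counts of genes with 3 pairs in 1 direction at 1275 and 1952. The promoter comparison over all changed genes was not run, since the table covers too few genes. Genes near 0 in 1 group are limited by depth, and folds against 0 counts are lower bounds.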
